A study of Mus musculus with 2 samples.

Results

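Endothelial cells, the cells that line blood vessels, were taken from droplet single-cell RNA libraries of the mouse locus coeruleus, the main noradrenaline-making nucleus of the brainstem. A kept barcode counted as endothelial where the unique molecular identifiers (UMIs, 1 per captured RNA molecule) of Flt1, Cldn5, Mecom, Adgrl4 and Ptprb summed to at least 10 per 10000 UMIs, at least 2 of these 5 gate genes were seen, and the sum exceeded that of 7 mural and fibroblast genes. This gave 184 of 3035 kept barcodes, 7 of 295 in library 1 and 177 of 2740 in library 2. The study asked about the diversity of neuropeptide signalling in this nucleus, and its 2 libraries, labelled batch 1 and batch 2, form 1 group of mice of the C57BL/6N strain with wild-type genotype, aged 3 to 4 weeks and drawn from both sexes. All cells compared here come from those untreated mice, and the labels do not give the number of mice per library or any pooling. The labels describe both papain-dissociated cells fixed in methanol and sorted nuclei, without saying which library came from which, so a barcode may be a cell or a nucleus. The libraries shared 0 barcodes.

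Endothelial cells of most brain vessels form the blood-brain barrier. Tight junctions seal the gaps between neighbouring cells, few vesicles cross the cell body, carriers bring in sugars, amino acids and hormones, and ATP-driven pumps return lipophilic compounds to the blood. Wnt and norrin ligands from neighbouring cells keep this program on through beta-catenin, and pericytes, the mural cells of capillaries, sit in the same basement membrane.

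The cells were chosen by the UMIs of the gate genes, so those values are given as a description with no test. All 7 cells of library 1 held all 5 gate genes, with 56.7 to 226 gate UMIs per 10000 and a median of 81.9. In library 2 the lowest cell held 10.6 and the median was 124, with 2 cells between 10 and 20, 9 between 20 and 50, and 22, 45, 56 and 54 cells holding 2, 3, 4 and 5 of the genes. Outside the gate, 21 barcodes of library 2 passed the amount with 1 gene only, 1 and 4 barcodes of libraries 1 and 2 had a mural sum as high, and none with 2 or more genes lay between 5 and 10. Flt1, a receptor for vascular endothelial growth factor (VEGF), stood at 4205 and 5909 CPM (a gene's UMIs per 1000000 UMIs of the summed class) in libraries 1 and 2, and Cldn5, the main claudin of the barrier, at 657 and 952. The endothelial share of kept barcodes was 2.37% (exact 95% binomial interval 0.959 to 4.83) in library 1 and 6.46% (5.57 to 7.45) in library 2. These intervals, like those below, cover counting error only.

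The label was set beside 22 endothelial identity genes that the gate did not use, such as Pecam1, Cdh5, Egfl7 and Slco1a4. They summed to 54.6 to 153.9 UMIs per 10000 in the 7 cells of library 1, with a median of 108, and to 15.8 to 292 in library 2, with a median of 129. The 285 and 2537 other cells, which are those outside both vascular gates, had medians of 7.8 and 6.56 and highest values of 34.9 and 82.4. In library 1 no other cell reached the lowest endothelial cell. In library 2 the ranges overlapped from 15.8 to 82.4, and the cells within that stretch were not counted. The 3 and 26 cells of the mural and fibroblast gate had medians of 15.9 and 11.2 and highest values of 36.1 and 183.7, so the highest of them in library 2 lay above the endothelial median. Against the other cells, listed genes beyond the 5 that defined the label were thus also higher. The list was chosen with earlier results of these data known, so this is a description and not an independent check.

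**Figure D1:**
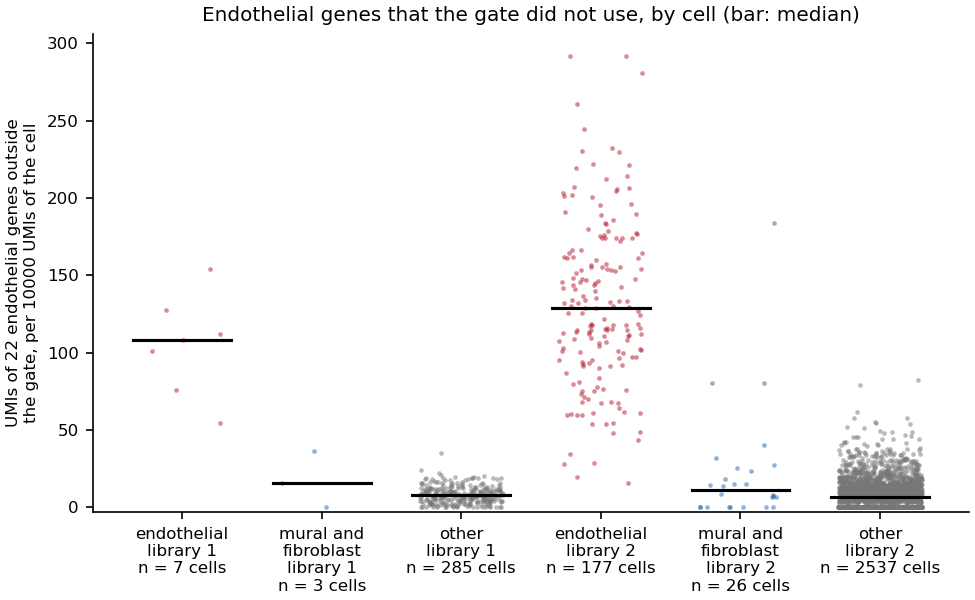
Summed UMIs of the 22 identity genes outside the gate, per 10000 UMIs of each cell, for each class and library. Each point is 1 cell and each bar a median. Endothelial medians are 108 and 129 against 7.8 and 6.56 in other cells, and single mural and fibroblast cells of library 2 reach up to 183.7.

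Library 1 held 5600693 UMIs in 304 barcodes and library 2 held 6895380 in 2796. Endothelial cells had a median of 6882 UMIs and 2463 genes in library 1 and of 982 UMIs and 612 genes in library 2, and their summed counts came to 56358 and 262657. The 2 libraries thus differ in depth per cell and in the number of endothelial cells, and a count of 0 allowed up to 53.2 and 11.4 CPM in the respective sums. Several cells carried RNA of other cell types. Mural gate genes had a UMI in 5 of 7 and 59 of 177 endothelial cells, and 4 and 38 of these also reached the amount that the mural gate asks for. In library 2, 21 cells also passed a gate for another class, 15 of them for neurons, and 9 were among the highest doublet scores of Scrublet. In 1 cell of library 1, 5503 of 12765 UMIs (43.1%) came from 6 erythroid genes, mostly haemoglobins. All were kept in the values below. Calls of named genes that ended without the cells of other gates, the highest doublet scores or the haemoglobin-rich cell are given beside the genes described. Those that ended without mural RNA are given for most lists.

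The first comparison asked which genes set endothelial cells apart from the neurons, glia and remaining cells of the same dissection. Counts were summed over the endothelial cells and over the other cells of each library, and the 4 sums were compared with edgeR's quasi-likelihood test with the library as a block. The gate genes were left out of all tests. Every adjusted p below is a Benjamini-Hochberg value of that test over all genes tested. Every fold is a log2 fold with the standard error (SE) derived from that test on 2 libraries. Genes past an adjusted p of 0.05 are called higher or lower. Of 12791 genes tested, 1234 (9.65%) were higher and 1022 (7.99%) lower in endothelial cells, and 2229 of these 2256 had the same sign in both libraries. The median of all genes was -0.38, or -0.16 with genes at 0 UMIs placed at their bound. The size factors of DESeq2 put that median at -0.70 and the split at 985 higher against 1371 lower. Leaving out the cells with any mural gate UMI, chosen after seeing the data, left 2 and 118 cells, with 141 genes higher and 0 lower (808 at an unadjusted p under 0.05). Leaving out only those at the mural gate's amount left 3 and 139 cells, 571 genes higher and 98 lower. The cause of these losses was not tested, and both steps also removed most of the endothelial UMIs of library 1. The haemoglobin-rich cell stayed in both, and gave 12765 of the 17527 and of the 21946 endothelial UMIs left in library 1. Calls kept or lost in these settings thus rest in library 1 mainly on that cell. Genes scarce in all classes were not tested, so the counts by list describe the genes that could be measured. A gene nearly absent from other cells was tested only where its endothelial counts passed the filter. The counts by list can therefore lean towards higher calls.

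The genes with the largest folds were nearly absent from other cells. VE-cadherin (Cdh5, chr8:104101625-104144511, plus strand, GRCm38), the cadherin of endothelial adherens junctions, had 19 and 55 UMIs (337 and 209 CPM) in endothelial cells against 1 UMI in all other cells, a ratio of 3170 with a counting interval of 570 to 125000. Endomucin (Emcn), a sialomucin of the vessel surface, had 14 and 111 UMIs against 2, a ratio of 2020 (559 to 16700). The orphan receptor tyrosine kinase Tie1 (ratio 1060, 191 to 42000), the surface protein Ly6a (1550, 278 to 61300), the kinase Bmx (849, 152 to 33500), the cerebral cavernous malformation protein Ccm2l (896, 161 to 35400) and the lectin Clec2d (848, 152 to 33500) each had 1 UMI in other cells. Gm9946, Tbx1 and Dipk2b had none, and stood at least 194-fold, 153-fold and 153-fold higher against a floor of 3 counts over both libraries. They and the other genes of this paragraph entered the test through their endothelial counts alone, as did Erg, Slco1a4, Abcb1a, Adgrf5 and Nostrin. So did other genes named below with similarly low levels in other cells, among them Icam1, Eng, Klf2, Calcrl, Piezo1, Kdr, Tek and Nos3. Vwf, Fn1, Itga1, F11r, Acvrl1 and Slc22a8 were further examples. The filter thus favoured a higher call for all of these, whatever their adjusted p. Tbx1 and Dipk2b were not called with DESeq2 (adjusted p = 0.1 for each). Tbx1 is a T-box transcription factor. The scarce genes from Tie1 to Dipk2b had 15 to 35 UMIs in all endothelial cells.

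Of the 22 identity genes, 21 were tested and 20 were higher, with a median log2 fold of 7.05. The adhesion molecule Pecam1 (chr11:106654217-106750628, minus strand), known as CD31, stood at 586 and 796 CPM in endothelial cells of libraries 1 and 2 and at 12.2 and 9.14 in other cells, a log2 fold of 6.19 ± 0.50 (adjusted p = 5.93e-32). Its lowest endothelial value was far above its highest value in other cells. The receptor phosphatase Ptprg was abundant in both classes, at 4130 and 4780 against 303 and 367 CPM, and differed by 3.89 ± 0.41 (adjusted p = 3.24e-19). Ablim1, an actin-binding protein, was the 1 tested identity gene that did not pass, at 497 and 529 against 399 and 348 CPM (0.63 ± 0.42, adjusted p = 0.353). With the cells that carried a mural gate UMI left out, 11 of 16 tested identity genes remained higher, Pecam1, Slco1a4, Emcn and Cdh5 among them. With those at the mural gate's amount left out, 17 of 18 did.

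Endothelial transcription factors followed the same pattern, with 21 of 22 tested (27 listed) higher and a median of 6.01. The ETS family factor Erg (chr16:95359169-95586593, minus strand), which maintains endothelial identity, was at 497 and 472 CPM against 0.183 and 0.631, a log2 fold of 10.18 ± 0.64 (adjusted p = 6.45e-52), and was seen in 7 of 7 and 79 of 177 endothelial cells. Its relative Fli1 (chr9:32422204-32542861, minus strand) was at 568 and 1040 against 1.46 and 9.93 CPM (7.53 ± 0.54, adjusted p = 4.75e-41). For both factors the endothelial sums of each library lay above both sums of other cells. Epas1, the oxygen-sensing factor also called HIF-2 alpha, was at 940 and 731 against 11.9 and 17.3 CPM (5.97 ± 0.49), and the flow-responsive Klf2 at 248 and 278 against 2.56 and 2.68 (6.80 ± 0.56). The SOX factor Sox7 had 48 UMIs against 1, a ratio of 1310 (234 to 51600). Broadly expressed factors had smaller folds: Tcf4, an E protein, was at 1100 and 2090 against 363 and 506 CPM (1.99 ± 0.40), and Foxp1 at 1650 and 1470 against 259 and 274 (2.70 ± 0.41). Without the cells holding a mural gate UMI, Erg, Fli1, Ets1, Klf2, Epas1, Sox7 and Bcl6b stayed higher, and Tcf4 (1.25) and Foxp1 (1.90) were not called. Ets2 (1.73 ± 0.75, adjusted p = 0.0999) did not pass in the full set.

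**Figure D2:**
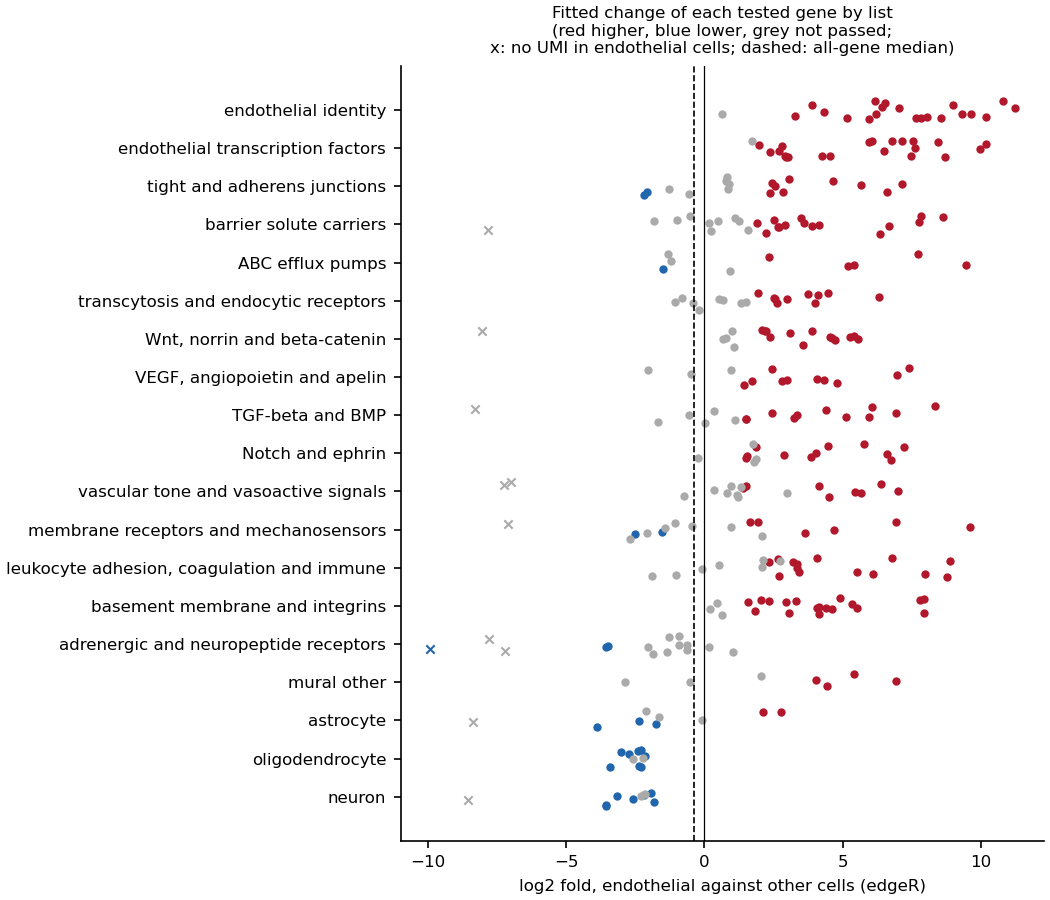
Fitted log2 fold of each tested gene, endothelial against other cells, by list. Red points were called higher, blue lower and grey not passed, crosses had no endothelial UMI, and the dashed line is the all-gene median of -0.38. Identity genes and transcription factors lie far to the right, oligodendrocyte and neuron markers to the left.

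Tight and adherens junction genes were mixed. Of 17 tested (19 listed), 9 were higher, 2 lower and 6 did not pass, with a median of 2.37. The scaffold ZO-1 (Tjp1, chr7:65296165-65527781, minus strand), which ties claudins to actin, was at 1190 and 1250 CPM against 219 and 310 (2.37 ± 0.41, adjusted p = 2.61e-07). The scaffold Cgnl1, or paracingulin, was at 426 and 445 against 9.14 and 9.93 (5.66 ± 0.49), the junctional adhesion molecule F11r at 195 and 168 against 2.74 and 1.58 (6.60 ± 0.62), and occludin (Ocln) at 71.0 and 87.6 against 4.02 and 3.47 (4.66 ± 0.68, adjusted p = 3.2e-10). Occludin rested on 4 and 23 UMIs. Genes shared with neurons and glia gave other values: the scaffold Magi1 stood at 426 and 438 against 243 and 286 CPM (0.86 ± 0.42, adjusted p = 0.165) and N-cadherin (Cdh2) at 106 and 248 against 287 and 313 (-0.54 ± 0.46, adjusted p = 0.492). Jam3 (-2.08 ± 0.65) and Cxadr (-2.17 ± 0.71), both junctional adhesion proteins, were lower, with 9 and 6 endothelial UMIs. Cldn1 and Cldn3 had no UMI in endothelial cells and 5 and 4 in other cells. Cgnl1, F11r and Ocln stayed higher without the cells holding a mural gate UMI, while Tjp1 (1.77) was not called there or without those at the mural gate's amount.

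Solute carriers gave the broadest set of barrier genes. Of 25 tested (28 listed), 15 were higher, none was lower and 10 did not pass, with a median of 2.52. The organic anion carrier Slco1a4 (chr6:141805440-141856199, minus strand), which moves bile salts and steroid conjugates and was counted with the identity genes, was at 692 and 971 CPM against 0.548 and 2.37, a log2 fold of 9.33 ± 0.59 (adjusted p = 1.44e-51). The thyroid hormone carrier Slco1c1 was at 337 and 541 against 1.10 and 3.15 (7.85 ± 0.57), and the organic anion carrier Slc22a8 at 124 and 145 against 0.183 and 0.473 (8.62 ± 0.81). For all 3 the endothelial sums of both libraries lay above those of other cells. GLUT1 (Slc2a1, chr4:119108711-119137983, plus strand), the glucose carrier of the barrier, was at 213 and 396 against 21.2 and 18.4 CPM (4.16 ± 0.48, adjusted p = 7.78e-16). The cationic amino acid carrier Slc7a1 was at 195 and 445 against 49.7 and 47.0 (2.93 ± 0.47), and the large neutral amino acid carrier Slc7a5 at 160 and 213 against 37.3 and 31.9 (2.68 ± 0.47). Metal carriers were also higher, among them the iron exporter ferroportin (Slc40a1, 231 and 103 against 3.29 and 1.26 CPM, 6.35 ± 0.65) and the zinc carrier Slc39a10 (266 and 396 against 36.2 and 27.6, 3.61 ± 0.46). Slc12a2 (0.23 ± 0.48, adjusted p = 0.821), the sodium, potassium and chloride cotransporter, and Slc3a2 (1.11 ± 0.70, adjusted p = 0.324), the partner chain of Slc7a5, did not pass. The nucleoside carrier Slc29a1 had no endothelial UMI. Without the cells holding a mural gate UMI, 3 of 22 of the list remained higher, Slco1c1, Slco2b1 and Slc22a8, as did Slco1a4 (9.05, adjusted p = 0.000348), and Slc2a1 kept its sign at 3.14 without a call. Without those at the mural gate's amount, 12 of 24 did, Slc2a1, Slc7a1 and Slc7a5 included.

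Of the 9 efflux pumps of the ABC family, all tested, 5 were higher and 1 lower, with a median of 2.35. P-glycoprotein (Abcb1a, chr5:8660077-8748575, plus strand), the main drug pump of the barrier, was at 763 and 582 CPM against 0.548 and 1.42 (9.45 ± 0.60, adjusted p = 6.45e-52). Its near copy Abcb1b had 0 and 3 UMIs against 65 in other cells, a ratio of 1.74 (0.358 to 5.08), and reads that fit both genes could have been split or dropped in counting. The breast cancer resistance protein Abcg2 was at 124 and 263 against 6.94 and 5.99 CPM (5.18 ± 0.54), and Abcc4, which exports organic anions, at 798 and 864 against 22.7 and 20.8 (5.42 ± 0.48). The cholesterol exporter Abca1 was at 71.0 and 194 against 27.4 and 35.5 (2.35 ± 0.50). Abcc5 was lower (-1.49 ± 0.56, adjusted p = 0.044), and Abcc1 (-1.30 ± 0.85, adjusted p = 0.341) and Abcg1 (-1.21 ± 0.87, adjusted p = 0.407) did not pass. Abcb1a was the 1 pump still called without the cells holding a mural gate UMI, and 4 were without those at the mural gate's amount.

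**Figure D3:**
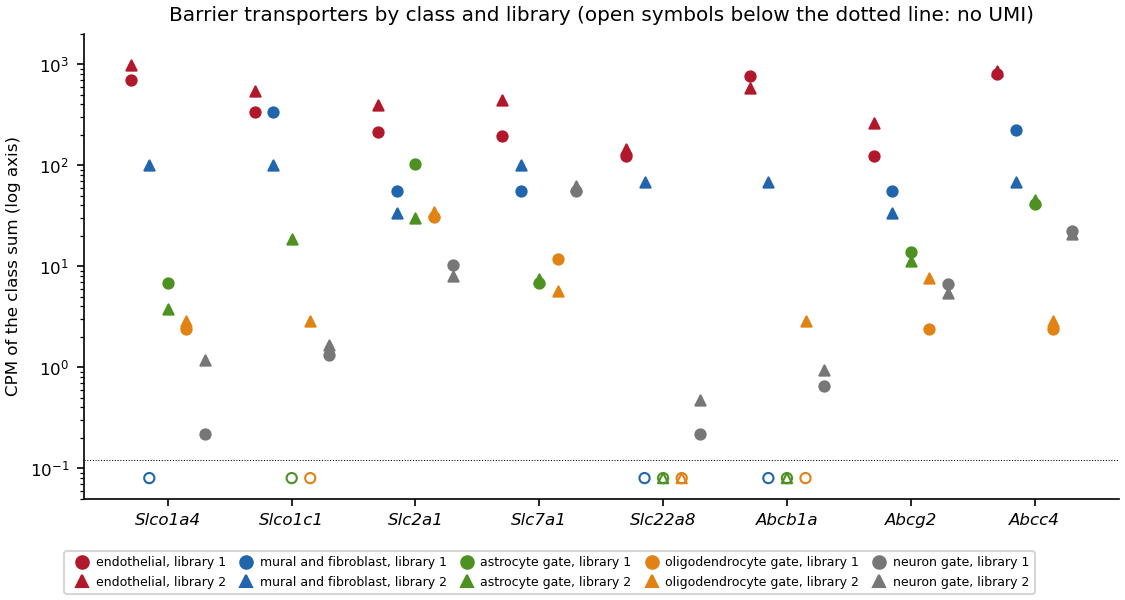
CPM of 8 barrier transporters in the summed counts of each class and library, on a log axis. Circles are library 1 and triangles library 2, and open symbols had no UMI. Endothelial values of Slco1a4 are 692 and 971 CPM, and those of Abcb1a 763 and 582.

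Shares of cells with a UMI were compared after each cell was thinned to 1000 UMIs, which left 88 of the 177 endothelial cells of library 2. Slco1a4 had a UMI in 60.2% of them (exact 95% interval 49.2 to 70.5) and in 0.201% of the 498 cells of library 2 that passed only an oligodendrocyte gate. Abcb1a had one in 45.5% (34.8 to 56.4) against 0 of 498, which allows a share of up to 0.602%. Slc2a1 had one in 40.9% (30.5 to 51.9) against 2.81%. At full depth the endothelial shares were 65.0%, 50.3% and 36.7%, with median depths of 982 UMIs in endothelial and 1505 in oligodendrocyte-gated cells. Oligodendrocytes should lack these pumps and carriers except Slc2a1, and each endothelial share lay above theirs beyond its interval. All 7 cells of library 1 were deep enough, and Slco1a4, Abcb1a and Slc2a1 each had a UMI in 6 of them at full depth.

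Genes of receptor-mediated uptake and caveolae came to 10 higher of 18 tested (21 listed), with none lower and a median of 2.22. The insulin-like growth factor receptor Igf1r was at 2520 and 2890 CPM against 181 and 196 (3.99 ± 0.42, adjusted p = 7.11e-19). Basigin (Bsg), the partner of monocarboxylate carriers, was at 781 and 765 against 170 and 137 (2.50 ± 0.43), and the insulin receptor Insr at 266 and 484 against 102 and 118 (1.93 ± 0.44). Caveolar coat genes were higher as well, with Cavin2 at 231 and 118 against 9.14 and 10.4 (4.12 ± 0.55) and Cavin1 at 106 and 87.6 against 4.93 and 4.57 (4.47 ± 0.66). Mfsd2a, the lipid carrier that holds vesicle transport down, was higher than in other cells (35.5 and 41.9 against 5.67 and 5.68 CPM, 3.00 ± 0.82, adjusted p = 0.00268), on 2 and 11 UMIs. The transferrin receptor Tfrc was at 88.7 and 99.0 against 44.4 and 42.9 (1.32 ± 0.52, adjusted p = 0.0642). Plvap, the diaphragm protein of fenestrated vessels, had no UMI in endothelial cells and 40 in other cells. Cavin1 and Stab1, a scavenger receptor, stayed called without the cells holding a mural gate UMI, and 6 genes did without those at the mural gate's amount.

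Among genes of Wnt and norrin signalling, 13 of 18 tested (22 listed) were higher and none lower, with a median of 2.75. Among the receptors, the norrin receptor Fzd4 was at 53.2 and 45.7 CPM against 2.19 and 1.89 (4.74 ± 0.90), Fzd6 at 71.0 and 95.2 against 1.46 and 2.37 (5.55 ± 0.71), the co-receptor Lrp5 at 35.5 and 87.6 against 6.21 and 7.09 (3.57 ± 0.68), and the Wnt7 co-receptor Adgra2 at 35.5 and 76.1 against 2.19 and 3.47 (4.54 ± 0.75). Beta-catenin itself (Ctnnb1) was at 284 and 217 against 80.4 and 46.2 (2.22 ± 0.44). Its DNA-binding partner Lef1 (chr3:131110471-131224356, plus strand) was at 639 and 838 against 20.6 and 18.4 (5.40 ± 0.48, adjusted p = 1.49e-26). At 1000 UMIs, Lef1 had a UMI in 47.7% of endothelial cells of library 2 against 0.402% of oligodendrocyte-gated cells, and at full depth in 59.3%. Genes that beta-catenin is known to switch on included Nkd1 (177 and 183 against 10.2 and 15.6 CPM, 3.91 ± 0.52), Apcdd1 (71.0 and 148 against 5.67 and 5.36, 4.63 ± 0.62) and Axin2 (160 and 26.6 against 16.3 and 15.4, 2.08 ± 0.69, adjusted p = 0.0186). Axin2 rested on 9 and 7 UMIs and was higher in endothelial cells of library 1 than of library 2. Lrp6 (1.06 ± 0.51, adjusted p = 0.154), Reck (0.79 ± 0.76, adjusted p = 0.546) and Zfp703 (3 UMIs, ratio 1.76, 0.363 to 5.14) did not pass. The ligand Wnt7a had no endothelial UMI. Apcdd1, Fzd6 and Lrp5 were still called without the cells holding a mural gate UMI, and 7 genes, Lef1 included, without those at the mural gate's amount.

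Receptors for vascular growth factors were higher in endothelial cells. Of 13 tested genes of the VEGF, angiopoietin and apelin group (17 listed), 10 were higher and none lower (median 2.80). The VEGF receptor Kdr was at 71.0 and 72.3 CPM against 0.365 and 0.473 (7.41 ± 0.95, adjusted p = 3.23e-13), the lymphatic VEGF receptor Flt4 at 17.7 and 68.5 against 1.10 and 0 (6.97 ± 0.99), and the co-receptor Nrp1 at 124 and 320 against 38.4 and 54.6 (2.45 ± 0.47). The semaphorin receptor Plxnd1 was at 106 and 126 against 4.57 and 7.73 (4.34 ± 0.61), and the angiopoietin receptor Tek, counted with the identity genes, at 177 and 270 against 0.731 and 1.10 (8.04 ± 0.64). Pdgfb, the ligand that recruits pericytes, was at 71.0 and 64.7 against 7.86 and 10.1 (2.98 ± 0.69). Vegfa had 0 and 2 UMIs against 330, a ratio of 0.215 (0.026 to 0.776) that did not pass the test across genes (adjusted p = 0.256). Vegfb (-0.50 ± 1.03, adjusted p = 0.823) and Angpt1 (0.96 ± 0.88, adjusted p = 0.525) did not pass, and Apln, Esm1 and Pgf had no endothelial UMI. Nrp2 stood at 248 and 171 against 68.0 and 66.2 CPM (1.73 ± 0.45), a call that ended without the haemoglobin-rich cell of library 1 (1.08, adjusted p = 0.166), without the highest doublet scores (adjusted p = 0.0872) and without the cells passing another class gate (adjusted p = 0.0605). Plxnd1 alone was called without the cells holding a mural gate UMI, and 5 genes were without those at the mural gate's amount.

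In the TGF-beta and BMP group, 11 of 17 tested genes (21 listed) were higher and none lower (median 2.46). Endoglin (Eng), the co-receptor mutated in hereditary haemorrhagic telangiectasia, was at 248 and 373 CPM against 2.92 and 2.84 (6.92 ± 0.56, adjusted p = 1.12e-32). Its partner receptor Acvrl1 was at 106 and 114 against 0.365 and 0.315 (8.36 ± 0.82), the ligand Tgfb1 at 319 and 312 against 2.19 and 8.36 (6.05 ± 0.51), and the receptor Tgfbr2 at 142 and 152 against 4.75 and 9.78 (4.41 ± 0.58). For all 4 genes both endothelial sums lay above both sums of other cells. The BMP target Id1 (124 and 49.5 against 0.731 and 1.58, 5.96 ± 0.87) and the inhibitor Smad6 (35.5 and 126 against 3.29 and 2.84, 5.13 ± 0.68) were higher, while Smad7 (0.01 ± 0.56, adjusted p = 0.996), Smad1 (1.11 ± 0.48, adjusted p = 0.0991) and Bmpr1a (-0.56 ± 0.59, adjusted p = 0.588) did not pass. The type 2 receptor Bmpr2 was at 319 and 423 against 166 and 136 (1.5 ± 0.43), and its call ended under DESeq2's size factors (1.17, adjusted p = 0.0575), without the highest doublet scores (adjusted p = 0.177) and without the cells passing another class gate (adjusted p = 0.142). Eng, Acvrl1, Tgfb1, Tgfbr2 and Id1 were called with and without the cells holding a mural gate UMI.

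Notch and ephrin genes came to 11 higher of 15 tested (18 listed), with none lower and a median of 2.87. Notch1 was at 88.7 and 175 CPM against 8.77 and 10.2 (4.04 ± 0.57), Notch4 at 53.2 and 38.1 against 0.914 and 0.788 (5.79 ± 1.05), and the ligand Dll4 of tip and arterial cells at 53.2 and 41.9 against 0.548 and 0.158 (7.22 ± 1.14). The ligand Jag1 was at 124 and 64.7 against 5.67 and 6.62 (3.85 ± 0.68), and the target Hes1 at 71.0 and 68.5 against 3.47 and 3.47 (4.47 ± 0.73). Ephb4, the ephrin receptor of veins, was at 124 and 107 against 1.28 and 1.26 (6.59 ± 0.71), and its arterial ligand Efnb2 at 142 and 107 against 47.7 and 31.5 (1.85 ± 0.50). The call of Efnb2 ended without the highest doublet scores (1.71, adjusted p = 0.0539). Genes marking arteries and veins were thus present in the same summed cells. Rbpj (-0.24 ± 0.69, adjusted p = 0.881), the DNA-binding partner of Notch, Hey1 (1.81 ± 0.98, adjusted p = 0.226) and Notch2 (1.85 ± 0.76, adjusted p = 0.0763) did not pass. Ephb4, Hes1 and Notch4 were called without the cells holding a mural gate UMI, and 8 genes were without those at the mural gate's amount.

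Genes of vascular tone gave 8 higher of 18 tested (24 listed), none lower, and a median of 1.37. Calcrl, the receptor for calcitonin gene-related peptide and adrenomedullin, was at 213 and 213 CPM against 2.74 and 2.84 (6.39 ± 0.58, adjusted p = 4.13e-26). Its adrenomedullin-type partner Ramp2 was at 53.2 and 60.9 against 0.365 and 1.10 (6.22 ± 0.93), while Ramp3 had no endothelial UMI. Endothelial nitric oxide synthase (Nos3) was at 71.0 and 145 against 0.731 and 1.10 (7.02 ± 0.74), and endothelin-1 (Edn1) at 71.0 and 34.3 against 0.548 and 1.42 (5.44 ± 1.02). The smooth muscle endothelin receptor Ednra was at 106 and 60.9 against 2.92 and 3.94 (4.50 ± 0.73), and at 166 and 101 CPM in cells of the mural gate. Its call ended when the cells at the mural gate's amount were left out. Entpd1, which breaks down extracellular ATP, was at 53.2 and 255 against 6.03 and 14.2 (4.13 ± 0.55), and the cyclic GMP phosphodiesterase Pde5a at 160 and 168 against 2.38 and 4.42 (5.67 ± 0.61). The endothelin-processing enzyme Ece1 (1.40 ± 0.47, adjusted p = 0.0191) was not called under DESeq2 (1.10, adjusted p = 0.0634), nor in 4 other settings, among them without the highest doublet scores or the cells passing another class gate (adjusted p from 0.0877 to 0.199). Gucy1b1 (1.34 ± 0.54, adjusted p = 0.0655), a chain of the nitric oxide receptor, Ddah1 (0.33 ± 0.57, adjusted p = 0.782) and Ednrb (1.21 ± 1.10, adjusted p = 0.52) did not pass, and Gucy1b1 turned to -2.57 without the cells holding a mural gate UMI. Calcrl and Nos3 were called there too.

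Of 16 tested membrane receptors and mechanosensors (23 listed), 6 were higher and 2 lower. Their median of 0.26 (0.84 with genes at 0 UMIs placed at their bound) became -0.05 under DESeq2's size factors, so the list has no fixed sign. The adhesion receptor Adgrf5 was at 621 and 525 CPM against 0.731 and 0.788 (9.62 ± 0.61, adjusted p = 1.12e-51), and the sphingosine phosphate receptor S1pr1, which tightens junctions, at 142 and 240 against 5.67 and 10.9 (4.68 ± 0.53). The 2 Piezo channels, which open under membrane stretch, went in opposite directions. Piezo1, the channel of vessels, was at 195 and 114 against 0.365 and 1.89 (6.95 ± 0.70, adjusted p = 6.03e-21), and Piezo2, the channel of sensory neurons, at 17.7 and 30.5 against 191 and 173 (-2.51 ± 0.62, adjusted p = 0.000591). Piezo1 stayed called without the cells holding a mural gate UMI (7.00), and Piezo2 kept its sign (-3.40) without a call.

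Receptors for noradrenaline, galanin and other peptides of this nucleus were scarce. Of 28 such genes, 13 had no UMI in any endothelial cell. The share of all genes without an endothelial UMI was not computed, so this count does not set the receptors apart. The 15 tested genes gave none higher and 3 lower, against 9.65% higher and 7.99% lower among all genes tested. Their median was -1.37 (-0.93 with genes at 0 UMIs placed at their bound). The other 13 genes had too few counts over the classes to be tested. The alpha-1A adrenoceptor Adra1a had 0 UMIs against 41.5 and 40.5 CPM in other cells, at least 4.32-fold lower (adjusted p = 0.0081). The PACAP receptor Adcyap1r1 had 1 UMI, a ratio of 0.0748 (0.00189 to 0.416), and the substance P receptor Tacr1 also 1, a ratio of 0.0781 (0.00198 to 0.435). The call of Adcyap1r1 ended without the highest doublet scores (adjusted p = 0.067) or the cells passing another class gate (adjusted p = 0.0625), and that of Tacr1 without the haemoglobin-rich cell (adjusted p = 0.0541) or at a minimum of 500 genes (adjusted p = 0.052). The galanin receptors Galr1, Galr2 and Galr3, the adrenoceptors Adra1d, Adra2a, Adra2b and Adrb3, and the vasoactive intestinal peptide receptors Vipr1 and Vipr2 had no UMI. With 56358 and 262657 UMIs, a level of up to 53.2 and 11.4 CPM could have been missed in libraries 1 and 2. The glucocorticoid receptor Nr3c1 was at 195 and 129 against 94.1 and 76.5 CPM (1.04 ± 0.46, adjusted p = 0.114) and the mineralocorticoid receptor Nr3c2 at 124 and 198 against 156 and 180 (0.15 ± 0.46, adjusted p = 0.893). None of the 3 lower calls held without the cells at the mural gate's amount.

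Leukocyte adhesion, clotting and immune genes gave 14 higher of 21 tested (30 listed), none lower, and a median of 3.20. Icam1 (chr9:21015985-21028817, plus strand), to which leukocytes bind, was at 550 and 700 CPM against 1.46 and 1.42 (8.89 ± 0.58, adjusted p = 1.42e-48), from 31 and 184 UMIs. It was held by 3 of 7 and 62 of 177 cells, and at 1000 UMIs by 43.2% of endothelial cells of library 2 against 0.201% of oligodendrocyte-gated cells. Vcam1, to which leukocytes also bind, was at 106 and 64.7 against 0.914 and 1.42 CPM (6.1 ± 0.83) in 1 and 11 cells, and the selectins Sele and Selp had no UMI in any class. The clotting protein Vwf was at 177 and 362 against 0.914 and 1.42 (7.98 ± 0.62) in 2 and 42 cells, and tissue plasminogen activator (Plat) at 532 and 525 against 52.4 and 62.0 (3.36 ± 0.44). Nostrin, which traffics nitric oxide synthase, was at 479 and 655 against 0.548 and 2.37 (8.76 ± 0.58, adjusted p = 1.99e-47). The cytokine receptor Il1r1 was at 177 and 244 against 7.67 and 3.94 (5.52 ± 0.54), Stat3 at 497 and 864 against 108 and 124 (2.69 ± 0.44), and the MHC class 1 partner B2m at 106 and 103 against 5.67 and 7.41 (4.09 ± 0.63). The clotting inhibitor Tfpi (2 UMIs, ratio 5.69, 0.689 to 20.6) and the receptor Ifngr1 (2.13 ± 1.02, adjusted p = 0.154) did not pass. Icam1 (7.31), Nostrin (8.73) and B2m (3.67) stayed called without the cells holding a mural gate UMI, while Vwf and Vcam1 could not be tested there, and 10 genes stayed called without those at the mural gate's amount.

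Basement membrane genes and integrins gave 18 higher of 21 tested (23 listed), none lower, and a median of 4.06. The collagen 4 chains Col4a1 and Col4a2 were at 444 and 426 CPM against 31.8 and 26.8 (4.06 ± 0.45) and at 231 and 392 against 43.1 and 42.1 (3.07 ± 0.46). The laminin chain of vessels Lama4 was at 177 and 312 against 4.57 and 7.41 (5.51 ± 0.53), and perlecan (Hspg2) at 106 and 83.8 against 2.38 and 5.05 (4.6 ± 0.67). Mural cells make many of the same proteins, and Col4a1 stood at 388 and 203 CPM and Lama4 at 166 and 270 in the mural and fibroblast class. Fibronectin (Fn1) was at 390 and 518 against 1.83 and 2.68 (7.79 ± 0.56), and the collagen and laminin receptor Itga1 at 674 and 388 against 1.10 and 3.31 (7.93 ± 0.55). Dystroglycan (Dag1, 0.46 ± 0.53, adjusted p = 0.64), Lamb1 (3 UMIs, ratio 1.00, 0.207 to 2.93) and Itgb3 (2 UMIs, ratio 1.40, 0.17 to 5.06) did not pass, and Col15a1 had no endothelial UMI. Fn1, Itga1, Lama4, Hspg2, Lamb2 and Nid2 were called without the cells holding a mural gate UMI. Lamc1, at 213 and 118 against 34.5 and 44.1 CPM (2.04 ± 0.48), came to 0.09 there.

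Vessel segments were read from short lists of arterial, capillary and venous markers. At full depth 158 of 177 cells of library 2 held a capillary marker, 102 a venous marker and 54 an arterial marker, and 7, 5 and 5 of the 7 cells of library 1 did. Thinned to 1000 UMIs, 76, 53 and 21 of 88 cells did, and 10 held arterial and venous markers together. The lists differ in length and in how abundant their genes are, so these counts do not rank the segments. The capillary list included the matrix gene Hmcn1 (532 and 959 CPM against 7.31 and 10.6, 6.52 ± 0.51), the chemokine Cxcl12 (284 and 164 against 1.65 and 3.15, 6.5 ± 0.59), Rgcc (71.0 and 141 against 9.50 and 13.7, 3.41 ± 0.58) and carbonic anhydrase Car4 (17.7 and 95.2 against 3.11 and 0.315, 5.96 ± 0.78). Among arterial genes, Bmx and the semaphorin Sema3g (5.14 ± 0.89) had 17 UMIs each. Stmn2, also a marker of neurons, was lower (-1.79 ± 0.50). Venous markers included Icam1 and Vwf above and Nr2f2, the factor that sets vein identity (106 and 95.2 against 18.5 and 12.9, 2.92 ± 0.59). Ackr1, the chemokine decoy of larger venules, had 2 UMIs. Of 10 arterial, 10 capillary and 8 venous genes tested, 4, 6 and 6 were higher. Without the cells holding a mural gate UMI, Hmcn1, Cxcl12 and Sema3g stayed called, and Car4 and Bmx could not be tested. Rgcc (2.84), Nr2f2 (1.43) and Stmn2 (-1.63) were not called there. Without those at the mural gate's amount, Nr2f2 (1.91, adjusted p = 0.204) and Stmn2 (-1.48, adjusted p = 0.394) were not called. Of 8 fenestrated or angiogenic markers, Plvap, Esm1, Apln, Exoc3l2 and Nr5a2 had no UMI, a count with no share over all genes to set beside it. Angpt2 was higher from 6 UMIs (4.81 ± 1.38, adjusted p = 0.00438).

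Markers of the neurons and oligodendrocytes that make up most of the other class were lower in endothelial cells or did not pass. Neuronal markers came to 7 lower and none higher of 10 tested, and oligodendrocyte markers to 8 lower and none higher of 10. The myelin gene Mbp was at 71.0 and 141 CPM against 355 and 886 (-2.39 ± 0.50, adjusted p = 3.28e-05), with a UMI in 3 of 7 and 16 of 177 endothelial cells. The synaptic vesicle gene Syt1 was at 88.7 and 259 CPM against 1410 and 1100 (-2.58 ± 0.46), and Dbh, the enzyme that makes noradrenaline, at 0 and 15.2 against 266 and 139 (-3.57 ± 0.72). The largest falls with a level of at least 20 CPM in other cells were all of genes with no endothelial UMI. Atp5c1, a subunit of mitochondrial ATP synthase, was at least 7.44-fold lower, the neural factor Pou3f3 at least 6.02-fold, Plpp4 5.94-fold, Crtac1 5.81-fold, Zfyve28 5.77-fold, Tmem35a 5.59-fold, the factor Lmx1b 5.51-fold and Eya2 5.39-fold. Pou3f3, Zfyve28, Tmem35a, Lmx1b and Eya2 did not pass with DESeq2 (adjusted p from 0.341 to 0.38). Of the 1022 lower genes, 69 had no endothelial UMI. None of the lower calls held without the cells holding a mural gate UMI. Without those at the mural gate's amount Atp5c1 was called (adjusted p = 0.0342). Mbp (0.216), Syt1 (0.0941), Dbh (0.068) and the genes from Pou3f3 to Eya2 (0.0587 to 0.0802) were not.

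Markers of neighbouring cell types were present at unequal levels in the endothelial sums. Of 13 further mural markers, 7 were tested and 4 were higher than in other cells: the channel subunit Abcc9 (426 and 114 CPM against 2.38 and 1.73, 6.92 ± 0.59), Cspg4 (124 and 129 against 7.13 and 9.78, 4.02 ± 0.59), Myh11 (5.40 ± 0.67) and Tagln (4.44 ± 1.18). Per cell these 13 markers summed to 0 to 20.6 UMIs per 10000 in library 1, where 4 of 7 cells held one, and to 0 to 36.5 in library 2, where 46 of 177 did. Cspg4 fell to 1.09 and was not called without the cells holding a mural gate UMI. Of the mural gate genes, Atp13a5 was at 923 and 407 CPM in endothelial cells against 943 and 1386 in the mural and fibroblast class, Rgs5 at 160 and 126 against 1332 and 270, and the fibroblast gene Dcn was at 0. Of 10 further fibroblast markers, Col1a1, Igfbp2 and Slc47a1 had no UMI and 7 had some, with at least 1 UMI of the list in 4 of 7 and 17 of 177 cells. The 3 tested did not pass, and Bicc1 (8 and 18 UMIs, 0.56 ± 0.52) had the most. Of 10 microglia and macrophage markers 6 had no UMI, C1qa, C1qb and P2ry12 among them, while all 7 cells of library 1 and 67 of library 2 held a UMI of the list. The colony-stimulating factor receptor Csf1r (2 and 4 UMIs, 2.99 ± 1.19, adjusted p = 0.0642) and the fractalkine receptor Cx3cr1 (1 and 6 UMIs, 2.11 ± 1.04, adjusted p = 0.165) did not pass, but Csf1r was called with DESeq2 (adjusted p = 0.015), at a minimum of 500 genes (0.0115) and without the block (0.00222), and Cx3cr1 without the block (0.0135). Of 8 platelet and leukocyte markers 7 had none. As for the receptors above, the share of all genes without an endothelial UMI was not computed, so such counts do not set these markers apart. Of 9 tested astrocyte markers 2 were higher than in other cells, 3 lower and 4 did not pass. Aqp4 had 1 UMI and Gfap none. The part of these cells' RNA in the results above was tested only by leaving out the cells that carried it.

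**Figure D4:**
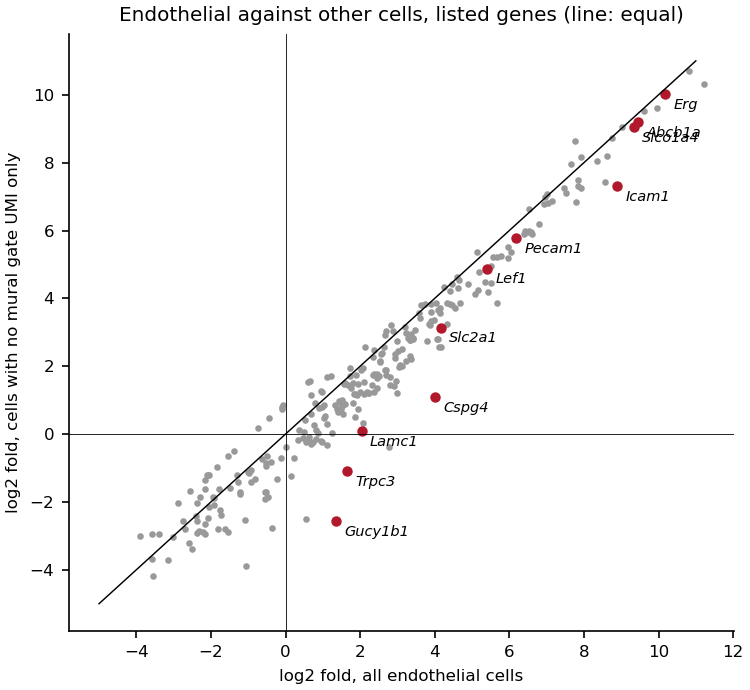
Log2 fold of each listed gene, endothelial against other cells, over all 184 cells (x axis) and over the cells with no mural gate UMI (y axis), with the line of equal values. Erg, Slco1a4 and Abcb1a lie near the line at 9 or more on both axes, and Cspg4 and Lamc1 lie below it.

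The second comparison set endothelial cells against their closest neighbours in the vessel wall, the 3 and 26 cells of the mirrored mural and fibroblast gate, with 18020 and 29583 UMIs. At that depth 713 genes could be tested. Of these 56 (7.85%) were higher and 45 (6.31%) lower in endothelial cells, all 101 with the same sign in both libraries, and the all-gene median was 0.05. DESeq2 called 9 higher and 6 lower and gave no adjusted p for 373 of the genes. A gene nearly absent from either class could enter only through the counts of the other, so the low-count filter largely fixed its direction. Egfl7, Sgms2, Hmcn1, Chn2, Emcn and Abcb1a entered in this way on the higher side, and Bmp6, Lama1 and Slc1a3 on the lower side. With no low-count filter, 55 of the 56 higher calls and 6 of the 45 lower calls remained. Without the endothelial cells holding a mural gate UMI, 34 of 262 tested were higher and 40 lower.

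The epidermal growth factor-like protein Egfl7 (chr2:26580014-26593120, plus strand), which endothelial cells secrete into their matrix, was at 302 and 487 CPM in endothelial cells and had no UMI in mural and fibroblast cells, at least 6.62-fold higher (adjusted p = 0.00841). The sphingomyelin synthase Sgms2 also had no UMI there, at least 3.93-fold higher (adjusted p = 0.0138). Scarce counts in the smaller class limited most other ratios. Hmcn1 was at 532 and 959 CPM against 1 UMI (ratio 38.0, 6.82 to 1500), the Rac regulator Chn2 at 710 and 700 against 1 UMI (33.5, 6.02 to 1320), Abcb1a at 763 and 582 against 2 UMIs (15.5, 4.29 to 128), Slco1a4 at 692 and 971 against 3 UMIs (13.7, 4.70 to 66.6), Nostrin at 479 and 655 against 2 UMIs (14.0, 3.88 to 116) and Lef1 at 639 and 838 against 3 UMIs (12.1, 4.14 to 58.7). Other called genes with 1 or 2 UMIs in the smaller class were Sema3c, Emcn, Rai14, Tbc1d4, Cyyr1 and Rapgef1, with ratios from 12.1 to 22.8. Genes with more counts there gave firmer values: Ptprg was at 4130 and 4780 against 943 and 913 CPM (2.29 ± 0.28, adjusted p = 0.000332), Igf1r at 2520 and 2890 against 610 and 541 (2.27 ± 0.35, adjusted p = 0.00123), and the sphingomyelin synthase Sgms1 at 1300 and 1330 against 166 and 237 (2.68 ± 0.53, adjusted p = 0.00797). In all 3 the endothelial sums exceeded the mural and fibroblast sums in both libraries. Pecam1 (2.49 ± 0.64, adjusted p = 0.0194), Fli1 (2.66 ± 0.65, adjusted p = 0.0161), Tjp1 (1.85 ± 0.49, adjusted p = 0.0204) and Bsg (2.29 ± 0.65, adjusted p = 0.0303) were called here but not with DESeq2 (adjusted p from 0.125 to 0.158). Chn2, Abcb1a and Lef1 were not called with DESeq2 either (adjusted p from 0.0621 to 0.0827), nor were Icam1 (0.106) and Abcc4 (0.103). Of the 71 genes that the naming rule took for this comparison, DESeq2 gave no adjusted p for 35. For those it neither kept nor ended a call.

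On the lower side, the iron-regulating ligand Bmp6 had no endothelial UMI against 666 and 270 CPM, at least 36.2-fold lower (adjusted p = 0.00013). The laminin chain Lama1 was at 17.7 and 15.2 against 1830 and 372 CPM (-5.26 ± 0.70, adjusted p = 0.00039) and the glutamate carrier Slc1a3 at 17.7 and 26.6 against 555 and 372 (-4.06 ± 0.57, adjusted p = 0.000535). Slc1a3 is also on the astrocyte list. That list had medians of 52.3 and 37.0 UMIs per 10000 in mural and fibroblast cells of libraries 1 and 2, against 15.1 and 0 in endothelial cells. The part of astrocyte RNA in this call was not tested. Smooth muscle myosin Myh11 was at 53.2 and 141 against 444 and 439 (-2.06 ± 0.57, adjusted p = 0.0251). The call of Myh11 ended with no low-count filter (-1.45, adjusted p = 0.832), without the block (adjusted p = 0.0577) and without the endothelial cells at the mural gate's amount (adjusted p = 0.525). Dcdc2a, Eva1c, Ntrk3, Ntm and the endocytic receptor Lrp1 were lower by 2.89 to 3.19 on the log2 scale. With no low-count filter Eva1c (adjusted p = 0.228), Ntrk3 (0.0668) and Lrp1 (0.463) lost their call, and without the cells at the mural gate's amount Dcdc2a (0.0969) and Ntrk3 (0.456) did. Many barrier and matrix genes did not differ past the threshold: Slco1c1 (1.22, adjusted p = 0.261), Col4a1 (0.67, adjusted p = 0.491), Itga1 (-0.36, adjusted p = 0.751), Epas1 (0.97, adjusted p = 0.226) and Eng (1.37, adjusted p = 0.196), each from few mural and fibroblast UMIs.

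**Figure D5:**
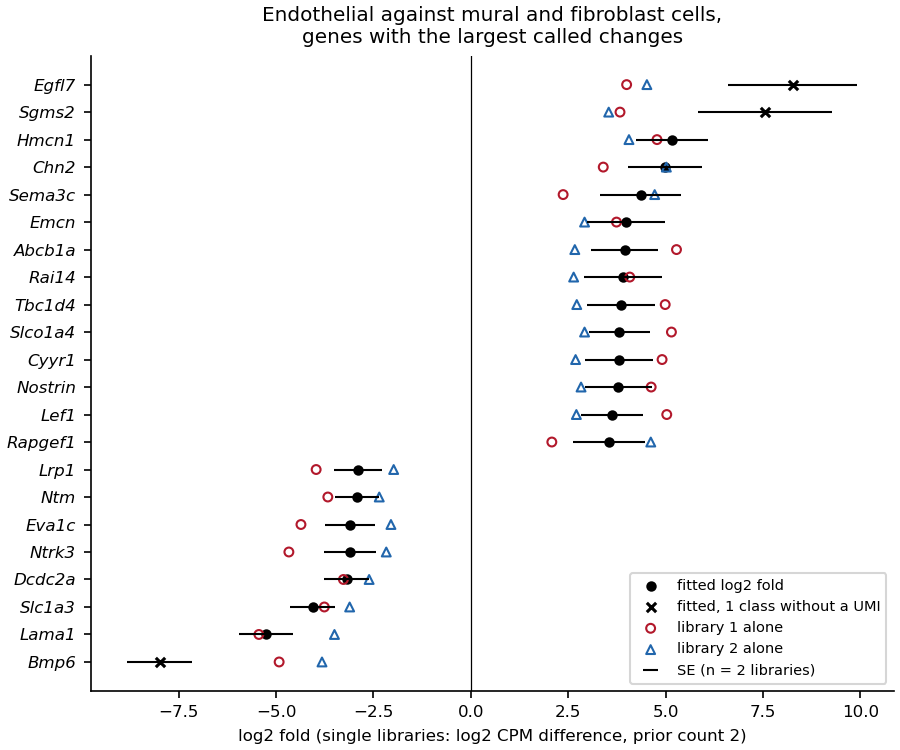
Genes with the largest called changes, endothelial against mural and fibroblast cells. Black symbols are fitted log2 folds with the SE derived from the test on 2 libraries. Crosses mark genes with no UMI in 1 class, and open symbols are single-library log2 CPM differences. Each gene has the same sign in both libraries, from Egfl7 down to Bmp6.

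Egfl7 and Nostrin were called higher in both comparisons, as were others such as Emcn, Abcb1a, Slco1a4 and Lef1. The 250 bases before their RefSeq starts (GRCm38.p6, plus strand) are shown for Egfl7 and Nostrin only. These genes were picked as examples, and the shares below tell how common such matches are. ETS motifs were searched because Erg and Fli1, which bind them, were among the factors with the largest folds. Capitals mark the ETS motif AGGAAGT and the TCF/LEF motif ATCAAAG, searched on both strands, so a match on the minus strand reads as its reverse complement. The first Egfl7 start (chr2:26580833-26581082) holds an ETS match on the minus strand 210 bases before the start and a TCF/LEF match on the minus strand. The second (chr2:26583615-26583864) holds an ETS match on the plus strand 73 bases before it, and the last start holds neither. Nostrin (chr2:69135550-69135799) holds an ETS match on the minus strand 50 bases before its start.
Egfl7, first start: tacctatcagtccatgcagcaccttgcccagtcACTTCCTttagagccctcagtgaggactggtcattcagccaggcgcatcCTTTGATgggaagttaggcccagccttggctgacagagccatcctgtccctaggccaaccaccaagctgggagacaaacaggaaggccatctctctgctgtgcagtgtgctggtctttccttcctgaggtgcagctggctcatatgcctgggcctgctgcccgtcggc
Egfl7, second start: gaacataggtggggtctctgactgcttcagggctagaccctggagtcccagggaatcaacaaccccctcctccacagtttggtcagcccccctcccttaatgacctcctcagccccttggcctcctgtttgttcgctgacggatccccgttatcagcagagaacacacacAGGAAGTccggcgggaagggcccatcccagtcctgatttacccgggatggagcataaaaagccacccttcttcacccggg
Nostrin: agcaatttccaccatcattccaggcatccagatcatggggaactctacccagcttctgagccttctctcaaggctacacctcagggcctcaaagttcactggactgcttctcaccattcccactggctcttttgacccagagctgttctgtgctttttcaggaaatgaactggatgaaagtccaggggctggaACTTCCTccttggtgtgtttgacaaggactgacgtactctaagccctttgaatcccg
The ETS motif lay in 7.69% of 32851 such windows of the genome, in 6.41% of 12967 windows of tested genes and in 8.39% (113 of 1347) of those of genes called higher against other cells. The TCF/LEF motif lay in 3.21%, 2.17% and 2.08%. Among 20 windows of called identity genes 4 held the ETS motif, and among 19 of called endothelial transcription factors none did. A match describes the letters of the window and nothing about binding.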

How the data were processed

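The deposited matrices hold counts, whole numbers of UMIs per gene and barcode that the authors left without normalization. Per the submitters' processing notes Cell Ranger 7.0, Seurat, mm10 and GRCm38 were used, while per the file headers the matrices came from Cell Ranger 6.1.2. The study states 2578 cells, and the files hold 3100 barcodes, with at least 4208 and 500 UMIs each in libraries 1 and 2. A barcode needed 300 detected genes and no more than 20% mitochondrial UMIs, which kept 3035. Doublet scores (Scrublet in scanpy 1.11.5) served only for an alternative that removed 1 and 61 barcodes.

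Counts were summed per class and library and compared in a two-sided test of edgeR 4.0.16 under R 4.3.3 with limma 3.58.1. It used TMM scaling, filterByExpr and a library block, because each library holds both classes and so pairs them. The 12 gate genes stayed in library sizes and out of tests. With 1 residual degree of freedom, each gene borrows its spread from the others. The block takes up differences between the libraries, so p-values rest on how far the class fold differed between these 2 libraries. That spread may be technical. The SE divides a log2 fold by the square root of its F value. On simulated counts, 79.2% of genes changed 8-fold upward and 29.5% of those changed 8-fold downward were called against other cells, and 0.01% of unchanged genes. For 4-fold changes these shares were 14.9% and 4.4%. The simulation gave all genes 1 dispersion, both classes the profile of the other cells and the same library effect. Genes nearly absent from other cells and cells carrying RNA of other types were therefore not modelled. DESeq2 1.42.0 was an alternative. Python 3.11.15, anndata 0.12.19, numpy 2.4.6, pandas 2.3.3, scipy 1.17.1 and matplotlib 3.10.9 were also used. GENCODE M21 (GRCm38) held 32129 of 32285 features (99.64%), and promoter windows came from RefSeq.

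Members and gene lists were chosen with earlier results of these data known. Named genes were the 15 higher and 8 lower with the largest folds in each comparison (at least 20 CPM, same sign in both libraries) and, in each list, up to 4 called and 3 uncalled genes with the highest endothelial CPM. Some genes that this rule selects are not reported here. Other genes named, such as Slc2a1, Slc7a5, Kdr, Acvrl1, Nos3, Vwf in its adhesion list, Mfsd2a, Klf2, Fzd4 and Notch4, were chosen after their values were seen.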

Additional observations from a re-analysis of the deposited data

How the results depend on the processing

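The counts of called genes came from 2 libraries, of which library 1 gave 7 endothelial cells. Against other cells (1234 higher, 1022 lower), dropping the replicate block that pairs the classes within a library gave 1706 higher and 1695 lower. The other planned settings gave 859 to 1263 higher and 1011 to 1371 lower, all within 1.5 times. With the cells holding a mural gate UMI left out, 141 were higher and 0 lower, and with those at the mural gate's amount left out 571 and 98. Both settings were chosen after seeing the data and leave 2 and 3 cells in library 1, the haemoglobin-rich cell among them. The cause of the change was not tested. Leaving out the haemoglobin-rich cell, also chosen after seeing the data, gave 1121 higher and 895 lower, and 56 and 58 in the second comparison. Of 185 genes named against other cells, 73 and 38 lost their call in the respective settings without mural RNA. Under DESeq2 10 did, and 9 with the highest doublet scores removed. The 185 include genes not called in the main fit, which had no call to lose. Called genes that a setting could not test, such as Bmx, Ccm2l and Dipk2b in those without mural RNA, were not counted as lost. The part of the calls that was lost is thus larger than these counts out of 185.

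Against mural and fibroblast cells (56 higher, 45 lower), DESeq2 gave 9 and 6, no low-count filter 122 and 11, and removing the highest doublet scores 76 and 75. Without the block the counts were 51 and 33. Leaving out cells with a mural gate UMI gave 34 and 40, and leaving out those at the mural gate's amount 29 and 31, from fewer genes tested. Gm42418 turned from -0.02 to 0.59 with no low-count filter. The cause of these changes was not tested. With a minimum of 500 genes per cell the endothelial share of library 2 was 5.09%. Thinned to 500 UMIs, Slco1a4 had a UMI in 45.2%, Abcb1a in 28.3% and Slc2a1 in 14.7% of cells. That setting keeps fewer UMIs per cell and also adds the shallower cells (177 in place of 88), and which of these moved the shares was not tested. Leaving out 1 library left no residual degree of freedom and so no count of calls, and no called gene that is named changed sign in either library alone. In size, 155 single-library folds against other cells moved by more than the SE and 215 did not, and 66 and 76 against mural and fibroblast cells.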

Other observations

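Genes that respond within minutes to stress or tissue handling were higher in endothelial cells than in other cells, with 11 of 14 tested past the threshold, none lower and a median log2 fold of 2.86 against -0.38 for all genes (edgeR's quasi-likelihood test, Benjamini-Hochberg adjustment). Fosb, an AP-1 subunit, was at 1700 and 792 CPM in libraries 1 and 2 against 147 and 126 (3.24 ± 0.43 SE, adjusted p = 3e-12), and Atf3 at 656 and 232 against 32.9 and 25.9 (3.87 ± 0.44). Egr1 was at 1010 and 700 against 261 and 233 (1.92 ± 0.42) and Fos at 550 and 404 against 144 and 148 (1.82 ± 0.42). Each of these 4 genes was higher in the endothelial cells of library 1 than in those of library 2. Against mural and fibroblast cells Fosb (0.22, adjusted p = 0.796), Egr1 (-0.02, adjusted p = 0.983) and Fos (0.21, adjusted p = 0.875) did not pass. Without the cells holding a mural gate UMI, 1 of the 14, Zfp36 (4.41), was called against other cells, and 7 were without those at the mural gate's amount.

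Nuclear RNAs gave unequal values. Neat1, the scaffold of paraspeckles, was at 2220 and 2070 CPM in endothelial cells, 40.8 and 118 in other cells (5.07 ± 0.46, adjusted p = 4.89e-26) and 832 and 541 in mural and fibroblast cells (1.71 ± 0.37, adjusted p = 0.0105). Without the cells holding a mural gate UMI both calls of Neat1 ended (adjusted p = 0.513 and 0.078), and without those at the mural gate's amount the second did (0.0969). Meg3, an imprinted RNA abundant in neurons, was at 337 and 1430 against 9880 and 9890 in other cells (-3.55 ± 0.40, adjusted p = 9.48e-17). Its call ended without the cells holding a mural gate UMI (-4.17, adjusted p = 0.8) and held without those at the mural gate's amount. Malat1 was at 21200 and 22700 against 12900 and 17700 in other cells (0.69 ± 0.31, adjusted p = 0.123), a difference that DESeq2 called (0.35, adjusted p = 0.0011). Against the 41800 and 40700 CPM of mural and fibroblast cells Malat1 was lower (-0.88 ± 0.11, adjusted p = 0.000373), but not with no low-count filter (-0.27, adjusted p = 0.623). Gm42418, which overlaps ribosomal RNA sequence, took 17.9% and 14.2% of endothelial UMIs against 13.5% and 9.96% in other cells (0.61 ± 0.26, adjusted p = 0.1). Of 6 markers of dividing cells none had enough counts to test, and Mki67, Birc5 and Pclaf had no endothelial UMI. The part of depth and of the cells-or-nuclei preparation in these values was not tested.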
